A study of Mus musculus with 20 samples.

Results

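Levels of 9 genes of mouse Chr2 were examined in 20 breast tumors: Zfp217, Bcas1, Pfdn4, Aurka, Ncoa3, Mybl2, Ptk6, Rae1 and Cse1l. They are the mouse orthologs of genes in the segment of human chromosome 20q that is often amplified in breast cancer, and were taken by name from the 43346 genes of the count table, of which 3748 lie on Chr2. All 9 were found, between positions 163054687 and 181202789 of Chr2 (mm10), near its distal end. Each tumor came from a different [BALB/c-neuT x FVB/J] F1 female, bred from neuT transgene-positive BALB/c males and wildtype FVB/J females. The neuT transgene encodes an activated rat Erbb2 (Her2/neu) receptor, expressed in the mammary epithelium, so that all 20 tumors share this driver and arose spontaneously. The sample names divide the tumors into 9 Lo and 11 Hi, and neither the labels nor the methods of the study give the meaning of these words. No normal mammary gland was analysed here, and a tumor is called below by the number in its sample name.

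In human tumors, amplification of 20q13 raises the copy number of many neighboring genes together, and several of them have been proposed as drivers. ZNF217, the human ortholog of Zfp217, is a zinc finger protein that recruits CtBP, CoREST and histone demethylase complexes to chromatin. Some of the genes act in mitosis, and RNA of mitotic genes often follows the share of cycling cells. The level of such a gene of this segment can therefore carry both chromosome dosage and proliferation.

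The promoters of 3 members are shown because these genes are compared below for how they followed cycling cells and Chr2. Each sequence is 300 bases from RefSeq (GRCm38.p6, the assembly of mm10), from 250 bases before the RefSeq start of the gene to 50 bases after it, written 5′ to 3′ on the strand of the gene. Capitals mark CCAAT, the box bound by NF-Y, on either strand, and TTTGAA, the cell cycle homology element that the MuvB complex binds. The sequences lie at chr2:172370521-172370820 (minus strand) for Aurka, chr2:163054385-163054684 (plus strand) for Mybl2 and chr2:170142626-170142925 (minus strand) for Zfp217. These starts differ from those of the count table by 35 bases for Aurka, 52 for Mybl2 and 5428 for Zfp217. RefSeq gives Zfp217 a second start, whose window (chr2:170131171-170131470) held none of the motifs searched for.
Aurka: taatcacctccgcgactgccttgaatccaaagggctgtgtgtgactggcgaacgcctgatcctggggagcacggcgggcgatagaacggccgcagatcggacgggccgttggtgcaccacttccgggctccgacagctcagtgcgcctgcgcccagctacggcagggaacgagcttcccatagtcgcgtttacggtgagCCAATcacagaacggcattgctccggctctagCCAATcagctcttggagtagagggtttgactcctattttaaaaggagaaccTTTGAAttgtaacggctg
Mybl2: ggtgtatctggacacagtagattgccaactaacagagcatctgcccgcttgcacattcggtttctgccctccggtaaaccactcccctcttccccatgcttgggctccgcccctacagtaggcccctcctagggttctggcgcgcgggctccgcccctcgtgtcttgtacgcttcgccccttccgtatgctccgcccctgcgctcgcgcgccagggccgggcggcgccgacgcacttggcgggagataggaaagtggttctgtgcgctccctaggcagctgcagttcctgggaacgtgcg
Zfp217: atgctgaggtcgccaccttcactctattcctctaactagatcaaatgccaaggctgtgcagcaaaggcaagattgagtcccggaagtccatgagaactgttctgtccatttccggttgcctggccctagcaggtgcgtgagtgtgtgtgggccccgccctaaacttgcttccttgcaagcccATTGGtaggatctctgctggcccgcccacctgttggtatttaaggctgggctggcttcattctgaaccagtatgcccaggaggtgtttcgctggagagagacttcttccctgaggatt
The Aurka window held CCAAT in the gene's direction 51 and 19 bases before the start, and TTTGAA 32 bases after it. In the Zfp217 window CCAAT occurred on the opposite strand, as ATTGG, from base 183 of the 300. In the Mybl2 window neither was found. There TTTGGCGC, TTTCCCGC, TTTCGCGC and TTTGCCGC, forms of the E2F site, were searched for on both strands without a match. Other forms of this site were not searched for, so that the search cannot show whether the window holds one. The palindromic estrogen response element was in none of the windows. Of 32851 mouse promoters of this length, 37.4% held CCAAT and 17.9% TTTGAA on either strand, so that a match alone is common, whereas 0.070% held the estrogen response element. The start of Cstf1, a gene transcribed away from Aurka, lies inside the Aurka window, with 145 bases between the 2 genes in the coordinates of the count table. Promoters of 5 members were found in the RefSeq table, and those of Pfdn4 and Rae1 held none of these motifs.

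The total count of a tumor lay between 38765682 and 65465755, and at least 23557 genes were detected in each. Summed CPM (counts scaled to a common library size) of 8 epithelial genes lay between 2797 and 4460 in all tumors, none at 0. A pair of genes over a ribosomal RNA locus took 6.29% to 27.7% of a tumor's counts. Levels are given as RPKM, counts scaled to the listed coding length and to the library size after TMM normalization, which allows genes to be compared with each other. The 7 members with at least 455 counts in every tumor are measured well at this depth. Bcas1 and Ptk6 had medians of 13.5 and 9 counts. Since pieces of whole tumor were sequenced, fewer cells of a type and less RNA per cell cannot be told apart.

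The 7 well-measured members had mean levels between 2.89 and 15.96 RPKM. Cse1l, the exportin that returns importin alpha to the cytoplasm, was highest at 15.96 ± 2.33 RPKM (SD, n = 20), followed by Rae1, an mRNA export factor that also acts at the spindle, at 12.98 ± 1.44. Ncoa3, a coactivator of nuclear receptors, and the mitotic kinase Aurka did not differ beyond their spread, at 8.78 ± 0.999 and 8.78 ± 1.93. Zfp217 was at 6.58 ± 0.800 and Pfdn4, a subunit of the chaperone prefoldin, at 5.07 ± 0.766. Mybl2 (B-Myb), the transcription factor that joins MuvB at genes of late cell cycle, was lowest of the 7 at 2.89 ± 0.761 RPKM. In this order, the ranges of neighbors overlapped except those of Rae1 and Ncoa3, whose values met between 10.6307 RPKM (the lowest Rae1) and 10.6190 RPKM (the highest Ncoa3).

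**Figure D1:**
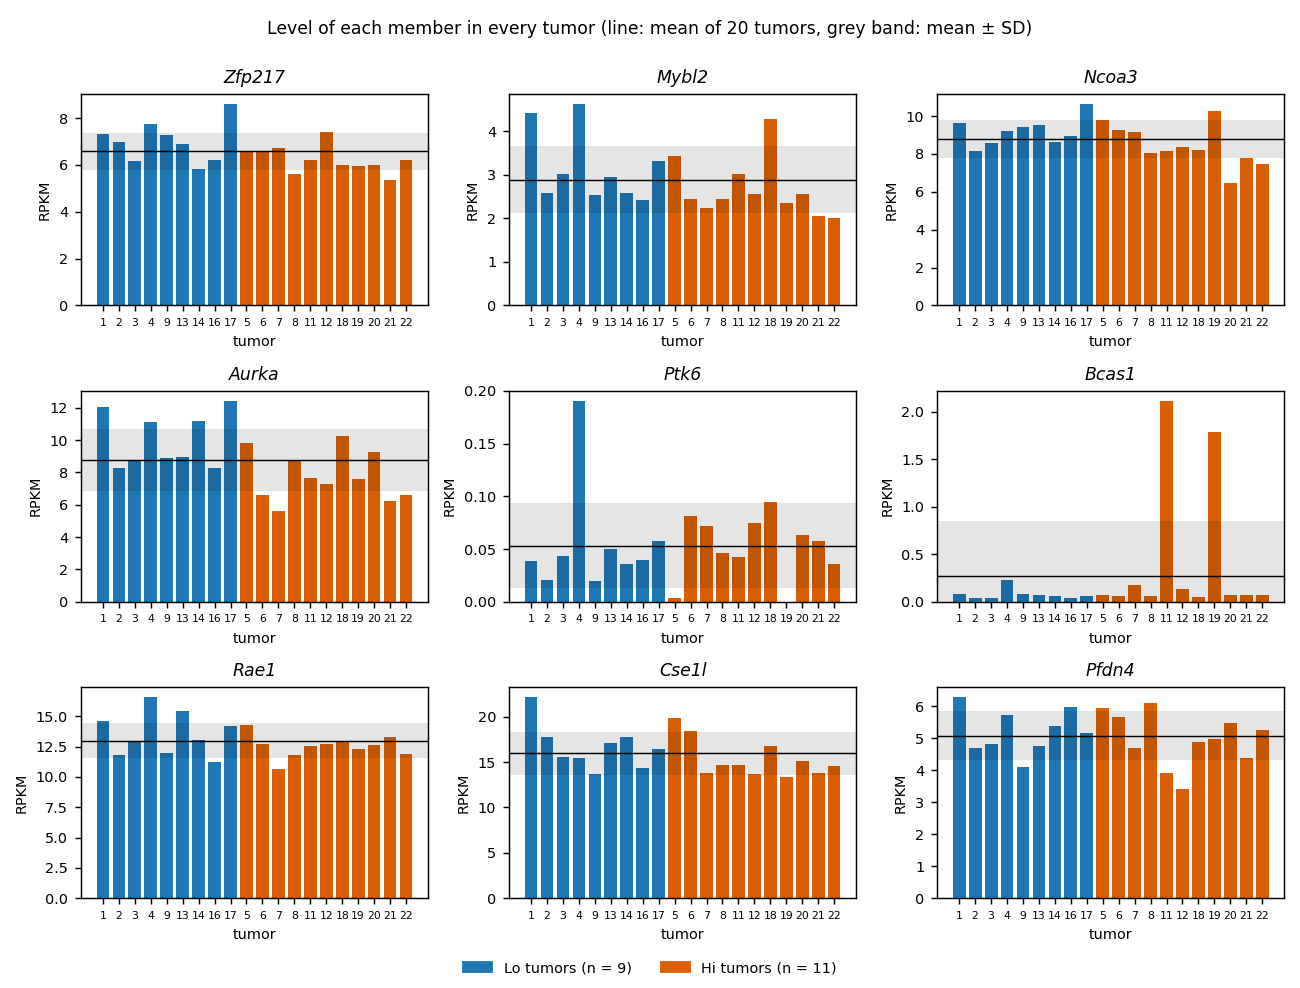
Level of each member in every tumor, in RPKM on a linear axis that starts at 0, with Lo tumors in blue, Hi tumors in orange, the mean of 20 tumors as a line and mean ± SD in grey. Bcas1 stands out in tumors 11 and 19 and Ptk6 in tumor 4, while the other 7 members vary by 2.29-fold or less.

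The coefficient of variation was lowest for Rae1 (11.1%), Ncoa3 (11.4%) and Zfp217 (12.2%), and highest among the 7 for Mybl2 (26.3%) and Aurka (21.95%). Zfp217 in the Lo tumors was 5.81 RPKM at the lowest, 6.99 at the median and 8.58 at the highest, and in the Hi tumors 5.34, 6.19 and 7.39. The highest Zfp217 level, in tumor 17, was 1.61 times the lowest, in tumor 21, and the groups overlapped. Aurka was 8.26, 8.95 and 12.4 RPKM in Lo and 5.60, 7.56 and 10.3 in Hi tumors, and its extremes in tumors 17 and 7 differed 2.22-fold. Mybl2 was 2.41, 2.95 and 4.62 RPKM in Lo and 2.02, 2.45 and 4.27 in Hi tumors, with tumors 4, 1 and 18 as the 3 highest. These 3 tumors stood at 4.27 RPKM or more and the next, tumor 5, had 3.42.

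Rae1 was 11.3, 13.1 and 16.6 RPKM in Lo and 10.6, 12.6 and 14.3 in Hi tumors. Cse1l was 13.7, 16.4 and 22.2 RPKM in Lo and 13.4, 14.7 and 19.8 in Hi tumors. For both genes the highest tumor was a Lo tumor, number 4 for Rae1 and number 1 for Cse1l. Ncoa3 was 8.15, 9.20 and 10.6 RPKM in Lo and 6.47, 8.18 and 10.3 in Hi tumors, and Pfdn4 was 4.09, 5.15 and 6.28 in Lo and 3.41, 4.97 and 6.08 in Hi tumors. Part of Pfdn4 is shared with Cyp24a1 (718 bases of the gene models) and Ncoa3 shares 154 bases with Sulf2, which had at least 10361 counts in every tumor, so that reads of these stretches are uncertain.

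Bcas1, first found as a gene amplified in breast cancer and known as a protein of myelin-forming cells, was near the detection limit in most tumors and high in 2 of them. Tumors 11 and 19, both Hi, had 566 and 348 counts, or 2.11 and 1.79 RPKM. The other 18 tumors had 6 to 44 counts, or 0.0390 to 0.228 RPKM with a median of 0.0686. Tumors 11 and 19 were thus 30.8 and 26.1 times this median, and tumor 19 was 7.86 times the highest of the other 18. They were singled out after their values were seen, and no test was made.

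The antisense genes inside Bcas1 were high in the same 2 tumors. Bcas1os1 had 77 and 46 counts in tumors 11 and 19, where the median of the others was 1, and Bcas1os2 had 52 and 27 against 3. Since the strand setting of the counting is not given in the sources used here, reads of Bcas1 and of these antisense genes cannot be told apart. Zfp217 and Pfdn4, on either side, stayed within the range of the other tumors. Zfp217, which starts before Bcas1, had 38.2 and 36.4 CPM in these tumors against 32.8 to 52.7 in the others, and Pfdn4, after it, 9.85 and 12.5 CPM against 8.60 to 15.8. Dok5, farther along, had 8 and 9 counts where the median of the others was 2. This was 0.11 and 0.17 CPM against 0 to 0.15 in the others. Summed adipocyte markers were 53.3 CPM in tumor 11, the highest of 20 tumors, and 13.7 CPM in tumor 19. The 8 leukocyte markers summed to 257 and 294 CPM in tumors 11 and 19. Their mean log2 difference from their medians over tumors was 0.44 in tumor 11 and 0.75 in tumor 19, the latter the highest of 20 tumors. The part of either set of markers in the Bcas1 level was not tested.

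Ptk6 (Brk), a cytoplasmic tyrosine kinase that signals with ErbB receptors, was hardly detected. It had 0 to 36 counts, at 0.0534 ± 0.0405 RPKM (SD, n = 20). Tumor 4 had the 36 counts, tumor 19 had 0, a count that allows up to 3, and tumor 5 had 1.

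To set the members against their chromosome, a Chr2 dosage was computed for each tumor. It is the median log2 expression of 963 Chr2 genes relative to their medians over tumors, the members left out. From this the same median over 10629 genes of other autosomes is subtracted. The dosage is a measure of RNA, and DNA copy number was not measured here. Tumors 1, 4, 17 and 13, all Lo, had dosages of 0.24, 0.21, 0.18 and 0.12 (log2). The other 16 tumors lay between -0.05 and 0.04. The dosage of Lo tumors was 0.07 ± 0.12 (SD, n = 9) and that of Hi tumors -0.03 ± 0.03 (SD, n = 11), which differed in an exact two-sided permutation test (p = 0.0162, adjusted p = 0.0325 over 2 measures). The label and the dosage are therefore partly confounded.

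The dosage varied along the chromosome. In the last window, from 160 Mb on, where all members lie, it was 0.38 in tumor 4, 0.24 in tumor 1, 0.19 in tumor 17 and 0.17 in tumor 13. In tumor 4 it rose from 0.03 in the first window through 0.13, 0.27 and 0.32, whereas in tumor 1 all windows lay between 0.23 and 0.27. The highest value in the last window among the other 16 tumors was 0.07, in tumor 5.

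**Figure D2:**
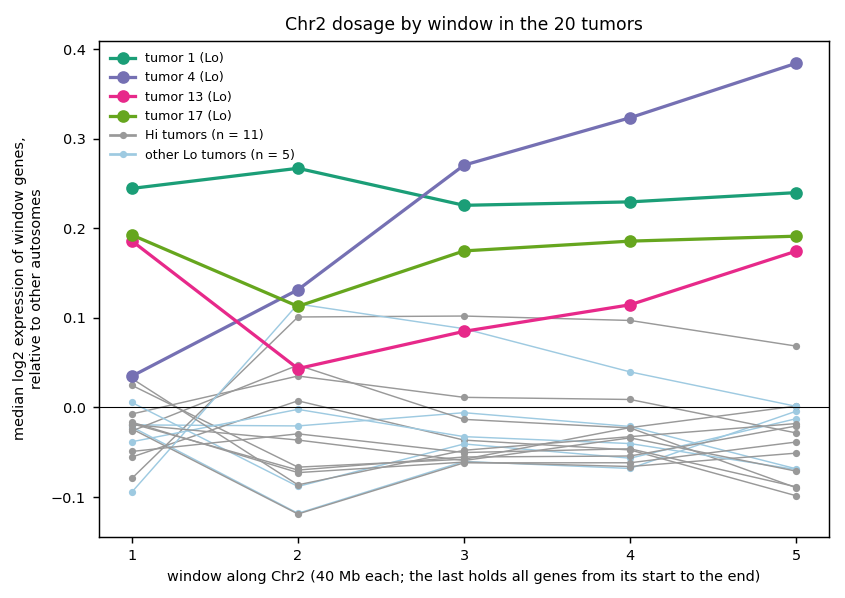
Chr2 dosage (log2, relative to other autosomes) in 5 successive windows of Chr2 of 40 Mb each, the last being the window of the members, with 1 line per tumor. Tumors 1, 4, 13 and 17 lie between 0.17 and 0.38 in the last window, and the others at or below 0.07.

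The members were mostly high where Chr2 was high. The median log2 difference of the 7 well-measured members from their medians over tumors was 0.31 in tumor 1, 0.28 in tumor 4, 0.27 in tumor 17, 0.18 in tumor 5 and 0.11 in tumor 13, which were the 5 highest tumors. In tumors 1, 4 and 17 all 7 members were above their medians. In tumor 4 Mybl2 was 0.84 above its median (log2), Rae1 0.38, Aurka 0.35, Zfp217 0.28, Pfdn4 0.18, Ncoa3 0.07 and Cse1l 0.01. In tumor 1 the order was another, with Mybl2 at 0.78, Cse1l at 0.54, Aurka at 0.47, Pfdn4 at 0.31, Zfp217 and Rae1 at 0.20 and Ncoa3 at 0.13. Among the 20 tumors Zfp217 ranked 1 in tumor 17, 2 in tumor 4, 4 in tumor 1 and 7 in tumor 13.

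The slope of each gene on the dosage was then fitted with edgeR's quasi-likelihood test, with Benjamini-Hochberg adjustment over 20335 genes. A slope of 1 means that the gene changed as much as the dosage. Mybl2 rose with the dosage, with a slope of 2.56 (standard error 0.579, adjusted p = 0.0238), and so did Rae1, with a slope of 1.28 (standard error 0.275, adjusted p = 0.0179). Zfp217 with a slope of 1.24 (standard error 0.320, adjusted p = 0.0515) and Aurka with 2.14 (standard error 0.561, adjusted p = 0.0560) did not pass the threshold of 0.05. They did with DESeq2 (adjusted p of 0.0141 and 0.0132) and with RLE in place of TMM factors (0.0473 and 0.0461). Cse1l had a slope of 1.17, Ncoa3 of 0.88 and Pfdn4 of 0.77, which did not pass (adjusted p of 0.196, 0.301 and 0.616). Bcas1 and Ptk6 did not pass either (adjusted p of 0.534 and 0.555), and the sign of the Bcas1 slope rested on tumors 11 and 19, being -7.69 with them and 3.37 without them.

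The 2 of 9 members called are to be read against the background. Of all genes tested, 1.53% were called, 271 upward (1.33%) and 40 downward (451 and 156 with DESeq2), and of the genes of other chromosomes 0.681%. Of the Chr2 genes other than members 10.8% were called upward, and of those among them that start from 160 Mb 16.9%. At a mean CPM of at least 5, edgeR called 241 of 970 Chr2 genes upward, members included, and 4 of the 7 members. DESeq2 called 301 of 1691 Chr2 genes upward and 4 of 9 members, and edgeR with RLE factors 196 of 1691 and 4 of 9. The median slope was 1.24 over the 9 members, 0.96 over the 1691 Chr2 genes tested and -0.06 over all genes. The dosage is defined by 963 Chr2 genes against other autosomes. The medians over Chr2 and over all genes, and the shares of Chr2 genes called, are therefore not independent of it. These calls rested on few tumors. Without tumors 1, 4, 13 and 17 edgeR called 0 genes (528 at an unadjusted p under 0.05), Mybl2 no longer passed without tumor 1 (adjusted p = 0.151) or tumor 4 (0.156), and Rae1 without tumor 4 (0.129). Adipocyte markers summed to 12.8, 20.2, 14.6 and 5.73 CPM in tumors 1, 4, 17 and 13. Over all tumors their sum ran from 5.73 to 53.3 CPM, with tumor 13 the lowest. With their score as a further term Mybl2 and Rae1 still passed (adjusted p of 0.0190 and 0.0363), and Aurka passed as well (slope 2.99, adjusted p = 0.00945). The 8 leukocyte markers summed to 242, 207, 340 and 251 CPM in the same 4 tumors. Over all tumors their sum ran from 193 to 340 CPM, with tumor 17 the highest. In 13 of the 20 tumors 1 of them, and never more, was at 0. Their score, the mean log2 difference of the markers from their medians over tumors, was -0.37, -0.25, -0.10 and 0.07 in tumors 1, 4, 17 and 13. With the leukocyte score as a further term 240 genes were called, Rae1 still passed (adjusted p = 0.0270) and Mybl2 did not, with a slope of 2.15 (adjusted p = 0.134). With the label as a term 30 genes were called, with Mybl2 at an adjusted p of 0.143 and Rae1 at 0.121.

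**Figure D3:**
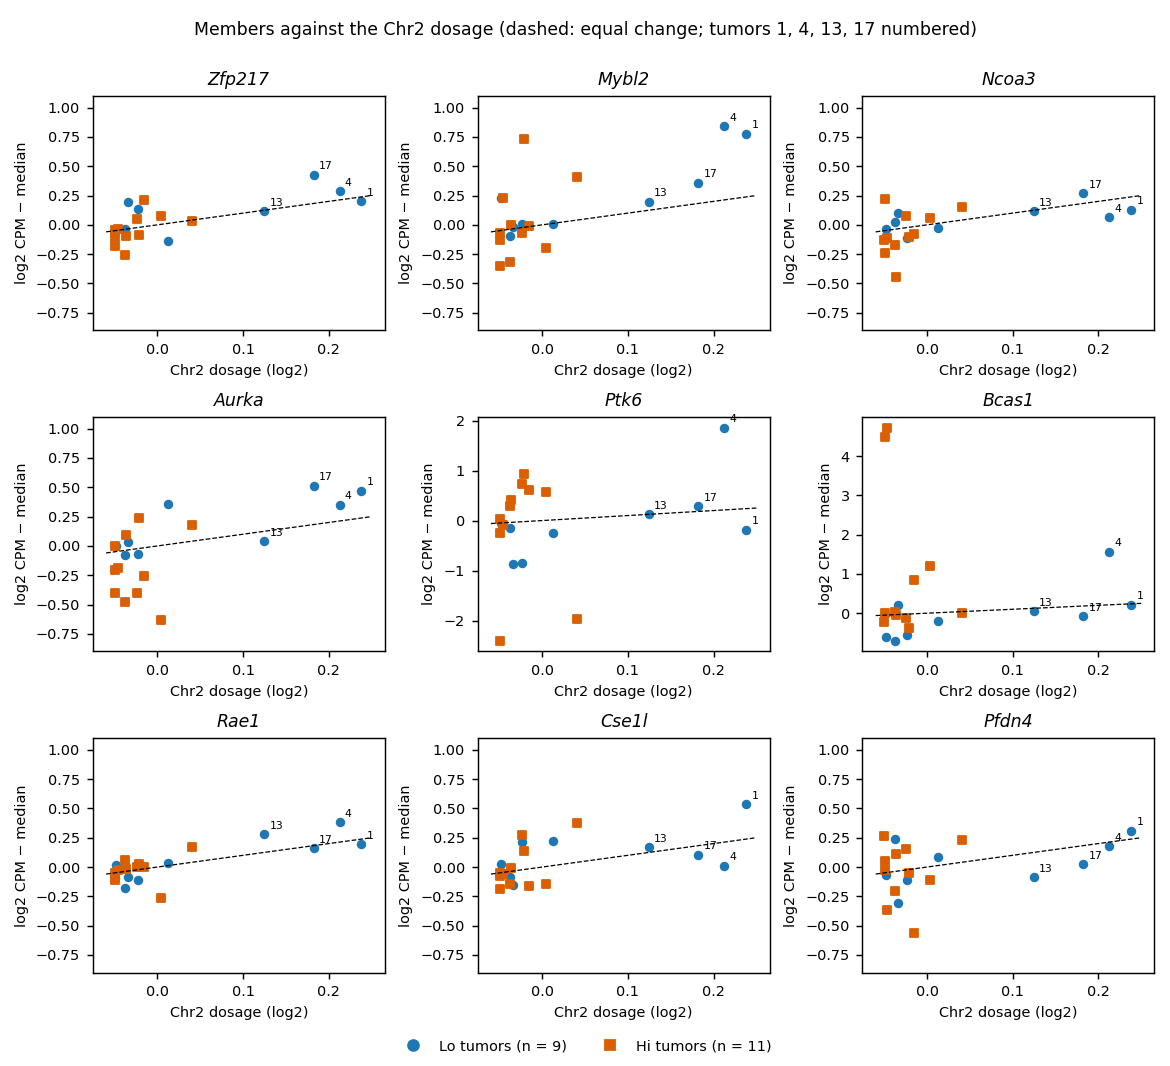
Expression of each member (log2 CPM minus its median over tumors) against the Chr2 dosage (log2), 1 point per tumor. Lo tumors are blue circles and Hi tumors orange squares, with a dashed line where a gene changes as much as the dosage. Tumors 1, 4, 13 and 17 are numbered at the right, and Bcas1 and Ptk6 have wider vertical axes.

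Since the dosages of these 4 tumors are separate from the rest, correlations were computed within the other 16 tumors. They had first been planned over all 20 tumors, where 6 of the 9 members passed the adjustment. No r or rho with the dosage is given over the 20 tumors, since it would span separate clusters, as the fitted slopes above do. For Zfp217 Pearson's r was 0.28 (permutation p = 0.300) and Spearman's rho 0.44 (permutation p = 0.0921), with adjusted p of 0.509 and 0.407 over 9 members. Without the 2 tumors farthest from the median dosage r became 0.54. For Cse1l r was 0.60 (permutation p = 0.0120, adjusted p = 0.108) and rho 0.38 (permutation p = 0.143, adjusted p = 0.407), and r fell to 0.15 without the 2 farthest tumors, on which this relation rests. The other 7 members had r between -0.22 and 0.35, and no member passed the adjustment within the 16 tumors.

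After the dosage of the tumor was subtracted, the spread of Zfp217 among tumors (SD of log2) went from 0.17 to 0.12, that of Rae1 from 0.16 to 0.10 and that of Mybl2 from 0.35 to 0.29. Over the 963 Chr2 genes that define the dosage the median SD went from 0.21 to 0.18. The residual of Zfp217 lay between -0.22 (tumor 21) and 0.25 (tumor 17). Among the 140 residuals of the 7 members the highest was 0.75, for Mybl2 in tumor 18, which is 1.68-fold above the dosage of that tumor. Above 0.5 there were 3 residuals, all of Mybl2, in tumors 18, 4 and 1. Below -0.5 there were 2, that of Aurka in tumor 7 (-0.64) and that of Pfdn4 in tumor 12 (-0.55).

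Aurka was the member that passed the test against a measure of cycling cells. This proliferation index was computed per tumor as the mean log2 expression of 20 cell cycle genes, none of them on Chr2, such as Mki67 and Plk1. Its lowest value was -0.66, in tumor 21, and its highest 0.24, in tumor 1. Aurka had a slope of 1.05 on the index (standard error 0.187, adjusted p = 0.00249 from edgeR). Mybl2 had a slope of 0.90 (standard error 0.262, adjusted p = 0.114), which passed with DESeq2 (adjusted p = 0.0449). Cse1l had a slope of 0.46 (adjusted p = 0.243), Pfdn4 of 0.37, Zfp217 of 0.19, Rae1 of 0.12 and Ncoa3 of 0.11, and none of these passed. With the adipocyte score as a further term Cse1l passed, with a slope of 0.63 (adjusted p = 0.0135). The difference between members' slopes was not tested.

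The 1 of 9 members called stands beside 1.13% of all genes called for the index, or 0.92% called upward. With the Chr2 dosage as a further term Aurka kept a slope of 0.88 (adjusted p = 0.00118). In this edgeR fit Aurka also passed on the dosage, with a slope of 1.59 (adjusted p = 0.0287). Mybl2 and Rae1 passed on the dosage there too (adjusted p of 0.0329 and 0.0276), and Zfp217 did not (0.0919). Without the 2 tumors farthest from the median index the slope of Aurka on the index was 1.11 and no longer passed (adjusted p = 0.134). Within the Hi tumors it was 0.91 (adjusted p = 0.0621) and within the Lo tumors 0.75 (adjusted p = 0.779). Tumors 7 and 21, with the 2 lowest indices, were also the 2 lowest in Aurka, at 5.60 and 6.25 RPKM. Summed basal or myoepithelial markers ran from 29.6 to 80.3 CPM and correlated with the index at r = -0.54 over 20 tumors, and their part in the result was not tested.

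**Figure D4:**
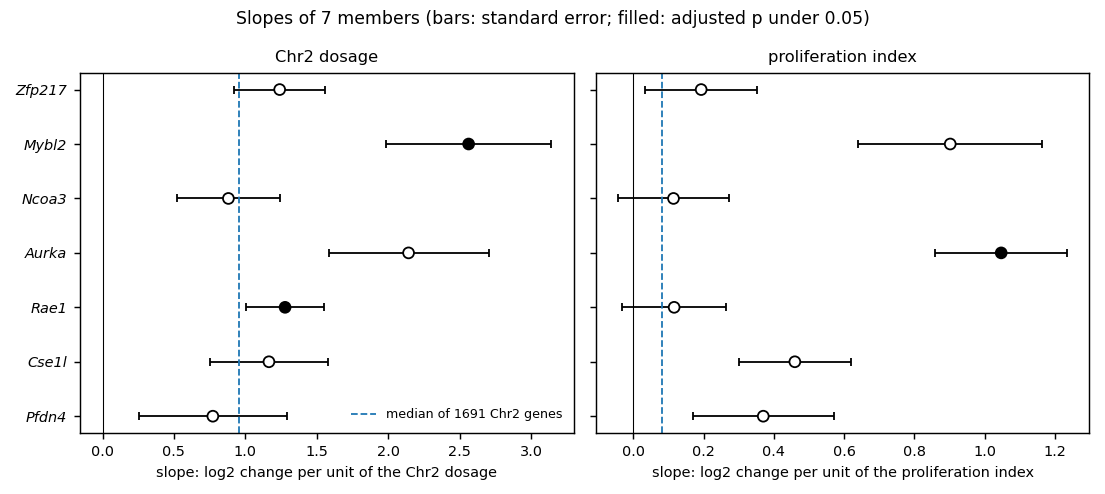
Slopes of the 7 well-measured members on the Chr2 dosage (left) and the proliferation index (right), in log2 of the gene per unit, with standard errors as bars, filled points at an adjusted p under 0.05 and the median of 1691 Chr2 genes as a dashed line. Mybl2 (2.56) and Aurka (2.14) have the highest slopes on the dosage, and Aurka (1.05) and Mybl2 (0.90) those on the index.

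**Figure D5:**
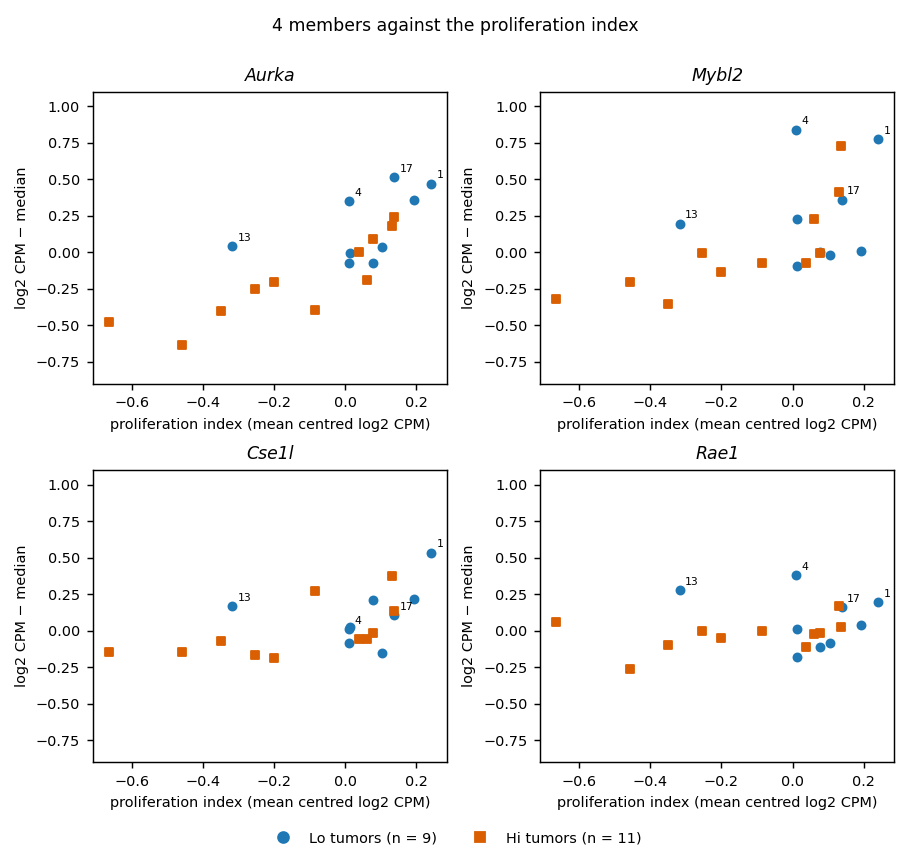
Expression of Aurka, Mybl2, Cse1l and Rae1 (log2 CPM minus the median over tumors) against the proliferation index, 1 point per tumor, Lo as blue circles and Hi as orange squares, with tumors 1, 4, 13 and 17 numbered. Aurka is lowest in the 2 tumors of lowest index, and Mybl2 is high in tumors 1, 4 and 18.

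Between Lo and Hi tumors no member passed edgeR's or DESeq2's test, and 3 of the 8 tested with edgeR had an unadjusted p under 0.05 (2 with DESeq2). Ptk6 was too low to be tested. Zfp217 was 0.17 higher in Lo on the log2 scale (standard error 0.068, adjusted p = 0.781), Aurka 0.36 higher (standard error 0.112, adjusted p = 0.655), and Mybl2 0.24 higher (adjusted p = 0.992). Ncoa3, Cse1l, Rae1 and Pfdn4 differed by 0.13, 0.13, 0.12 and 0.07 in the same direction, and Bcas1 by -2.41 (adjusted p = 0.664), which rested on tumors 11 and 19 and was -0.05 with DESeq2. Over 18883 genes edgeR called 0 (0%), with 1045 at an unadjusted p under 0.05, and DESeq2 called 1. The median difference over Chr2 genes was 0.10. Once the dosage was a term, Mybl2 stood at -0.03 and Rae1 at -0.02, and Pfdn4 changed sign as well. Zfp217, Aurka, Ncoa3 and Cse1l stayed higher in Lo with this term. In this edgeR fit 1 of 9 members had an unadjusted p under 0.05 and 0 passed. Whether the slope on the dosage differed between Lo and Hi was tested as an interaction, in which edgeR called 0 of 20865 genes (763 at an unadjusted p under 0.05). The Hi dosages lay only between -0.05 and 0.04, and all 4 tumors of high dosage were Lo. A slope within Hi is therefore poorly determined, and this test cannot show that the slopes are alike.

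Members varied together only in part. Aurka and Mybl2 had the highest correlation of the 36 pairs, r = 0.76 over 20 tumors, followed by Mybl2 and Rae1 (0.71) and Aurka and Rae1 (0.62). Zfp217 and Pfdn4, which lie within 0.5 Mb of each other, had r = -0.09. These values share the libraries and the 4 tumors of high dosage, and are given as a description. Of 11963 genes that passed a mean CPM of 5, those most like Zfp217 were Hinfp (r = 0.85), on Chr9, and Epb4.1l1 (0.84) and Tti1 (0.80), on Chr2. Those most like Aurka were Spc25 (0.91), Dut (0.91) and Knstrn (0.91), all on Chr2. For Bcas1 the highest were Aco1 (0.66), Snx18 (0.63) and Lrrc20 (0.63).

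The genes that work with the members were listed as 42 partners, such as Kdm1a and Rcor1 for Zfp217 and the prefoldin subunits for Pfdn4. Of 41 tested, 0 passed on the dosage with edgeR and 0 with DESeq2 (4 at an unadjusted p under 0.05 with each), with a median slope of 0.18. Beside 0.92% of all genes called upward on the proliferation index, 5 of the 41 rose with it. These were Aurkb (slope 1.12), the relative of Aurka in the chromosomal passenger complex, its partner Incenp (0.94), Foxm1 (1.11), a transcription factor that acts with B-Myb, and the transport factors Kpna2 (0.76) and Ran (0.49). The median slope of the list on the index was 0.14, and that of all genes -0.0043. The Zfp217 partners Kdm1a and Rcor1 had slopes on the dosage of -0.23 and 0.01 and means of 9.19 and 13.96 RPKM.

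Among 40 other genes of human 20q with orthologs on mouse Chr2, 39 were found and 36 tested. On the dosage 12 rose and 0 fell (17 and 0 with DESeq2), with a median slope of 1.27, beside the 0.96 of all Chr2 genes tested and the 16.9% of those from 160 Mb that were called upward. Since 31 genes of this list are among the 963 that define the dosage, this comparison is not independent of it. The highest slopes among the 12 were those of Znfx1 (3.22), the transcription factor E2f1 (2.53), Rtel1 (2.01), a helicase of telomeres, and the proteasome subunit Psma7 (1.99). Plcg1 (1.91), Atp9a (1.799), Nelfcd (1.72), the kinase Src (1.65), Ddx27 (1.59) and Ube2v1 (1.53) followed, and the lowest was Tfap2c (1.13), a luminal transcription factor. Cstf1, which begins beside Aurka, had a slope of 1.75 (standard error 0.263, adjusted p = 0.00163). On the index 3 of the 36 rose, beside 0.92% of all genes called upward. The 3 were Ube2c (2.03) and Tpx2 (1.37), both mitotic, the latter an activator of Aurka, and the weakly expressed Eef1a2 (12.7, mean 0.586 RPKM).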

How the data were processed

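Paired-end reads of 20 tumors, 1 per mouse, were cut to 100 bases by the authors and placed on mm10 by MapRseq. The submitters' processing notes name TopHat2 2.0.12 and featureCounts 1.4.4. The authors deposited raw counts per gene, without normalization. The strand setting is not given in the sources used here. Reads of both strains were aligned to a C57BL/6 reference.

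From these counts, CPM and RPKM were computed with edgeR 4.0.16 (TMM, prior count 2 on the log2 scale) in R 4.3.3, and quasi-likelihood tests were run after filterByExpr at an adjusted p of 0.05, with DESeq2 1.42.0 as an alternative. A tumor's Chr2 dosage used genes whose mean CPM reached 5. Exact and 100000-fold permutation tests, two-sided, used numpy 2.4.6. Correlations were planned over 20 tumors, and were restricted to 16 once the dosages were seen to be separate. The members and gene lists were chosen with earlier results of these data known. Named were all members, list genes past the threshold and the 3 genes most like Zfp217, Aurka and Bcas1. Fits that left out tumors by number, had a marker score as a term or blocked the index by number were added after seeing the data. Kdm1a, Rcor1 and the neighbors of Bcas1 were named after their values were seen. Depths of 38765682 to 65465755 counts per tumor limit Bcas1 and Ptk6 most, and limits from a count of 0 cover counting error only. Steps were tested on simulated data, in which 126 of 200 genes with a planted dosage slope of 4 among 20335 were recovered. This slope is larger than that of any well-measured member, so that the power at their slopes was not measured.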

Additional observations from a re-analysis of the deposited data

Results flagged for a closer look

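Among the 9 Lo tumors, 3 of 9 members had 1 tumor whose distance from its nearest neighbor was large against the whole range of the group by Dixon's test at the 95% level. About 1 in 20 such groups is picked out by chance, and the 11 Hi tumors were too many for this test. Bcas1 in tumor 4 was 0.228 RPKM where the next Lo tumor had 0.0830, which is 44 counts and lies far under tumors 11 and 19. Ptk6 in tumor 4 was 0.191 RPKM, from 36 counts, where the next had 0.0573. Cse1l in tumor 1 was 22.2 RPKM where the next had 17.8. Tumors 4 and 1 were also those with the highest Chr2 dosage. The part of the dosage in these values was not tested.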

How the results depend on the processing

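The number of genes called on the Chr2 dosage, 311, was 607 with DESeq2, 30 with the label as a term, 202 without tumors 11 and 19, and 5 without the 2 tumors farthest from the median dosage. Without tumor 1 it was 128 and without tumor 4 it was 110. It was 0 within Lo (1872 at an unadjusted p under 0.05), within Hi (734) and without tumors 1, 4, 13 and 17 (528), all by edgeR. On the proliferation index, 230 genes were called, and 432 with DESeq2, 41 without the 2 tumors farthest from the median index, 0 within Lo (1254 unadjusted, by edgeR) and 99 within Hi. Between Lo and Hi, 1 gene was called with DESeq2 and 1 with all genes of at least 1 count, against 0 by edgeR. With fewer tumors each test has less power, and otherwise the cause was not tested.

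Tumors with the same number after Lo and Hi did not deviate together (correlations from -0.41 to 0.33 over 9 pairs, 2 of them over 0.1). What the numbers stand for cannot be told from these correlations. With the number as a block, edgeR called 0 genes on the dosage (1535 unadjusted), 94 on the index and 0 between Lo and Hi (976 unadjusted). Aurka passed on the index with this block (adjusted p = 0.00776). Under the replicate block Bcas1 had a dosage slope of 2.79 and Ptk6 an index slope of 0.98, both of the opposite sign.

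Of 417 alternative values for members, 358 kept direction and side of the threshold or stayed within 1 SD, 19 no longer passed, 12 came to pass and 23 changed sign. The sign changes on the dosage were those of Bcas1 with the label as a term (1.79), within Lo (5.05), with the leukocyte score (3.83) and without tumors 11 and 19 (3.37), and of Ptk6 within Hi (-3.97) and without tumors 1, 4, 13 and 17 (-3.11). On the index they were those of Bcas1 with the label (1.65), with the dosage (0.39) and within Hi (2.37), Ncoa3 within Hi (-0.0072), and Rae1 with the dosage (-0.014) and within Lo (-0.32). Between Lo and Hi, Pfdn4 (-0.0023), Mybl2 (-0.033) and Rae1 (-0.017) changed sign with the dosage as a term, and without tumors 1, 4, 13 and 17 Mybl2 (-0.013) and Rae1 (-0.026) did. Within the 16 tumors, without the 2 farthest from the median dosage, the correlation with the dosage was -0.29 for Pfdn4, -0.32 for Aurka, 0.47 for Ptk6 and -0.32 for Rae1. Without the ribosomal RNA locus in the totals, the mean RPKM of Zfp217 was 7.84, and 5 members moved by more than 1 SD, all upward. Low counts limit Bcas1 and Ptk6.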
